A study of Mus musculus with 9 samples.

Results

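The glucocorticoid receptor gene Nr3c1, the hormone-activating enzyme gene Hsd11b1 and 7 genes known as receptor targets (Fkbp5, Tsc22d3, Zbtb16, Klf9, Sgk1, Errfi1 and Glul) were followed in 3T3-L1 cells. This line of mouse fibroblasts can be made to differentiate into adipocytes. All gene probes that the array files name by these symbols or their synonyms were taken. This gave 19 probes of 41174 gene probes on the array, for 8 of the 9 genes (of 27729 gene or feature names in all), and Zbtb16 is not analysed here. The cells were undifferentiated preadipocytes that had been deprived of serum for 48 h. They were then left untreated (control) or received 70 µM of X-1 or of X-3 for 24 h. The series title describes X-1 and X-3 as derivatives of mangiferin, a plant polyphenol, and the labels name no added glucocorticoid. Each group has 3 one-colour arrays, and the design text counts every array as an independent experiment.

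The glucocorticoid receptor is a nuclear receptor that rests in the cytoplasm in a complex with heat shock proteins and immunophilins. When cortisol or corticosterone binds, it enters the nucleus, binds DNA at palindromic response elements and raises the transcription of genes such as Fkbp5, Tsc22d3 and Klf9. Through other transcription factors it lowers that of many inflammatory genes. In preadipocytes, glucocorticoid is one of the standard signals used to start adipocyte differentiation, and the enzyme encoded by Hsd11b1 regenerates the active hormone inside the cell.

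Of the 6 measured target genes, X-1 raised Fkbp5, Klf9, Errfi1 and Glul, X-3 raised Klf9, Errfi1 and Glul, and Sgk1 fell with both. With X-1, 5 of the 8 measured genes rose (Hsd11b1, Fkbp5, Klf9, Errfi1 and Glul), Nr3c1 and Sgk1 fell and Tsc22d3 missed the threshold, each read at its brightest probe. With X-3, at the same probes, Hsd11b1, Klf9, Errfi1 and Glul rose, Nr3c1, Tsc22d3 and Sgk1 fell, and Fkbp5 missed the threshold. The fall of Nr3c1 holds for its brightest probe only, since its probe nearest the 5′ end rose with both compounds (1.80 and 1.21). The threshold was a limma adjusted p of 0.05 over all 16736 genes tested. Changes of this kind were common on these arrays: 56.5% of all genes tested were called with X-1 (28.2% higher and 28.3% lower) and 55.7% with X-3 (29.3% higher and 26.4% lower). The 7 genes of 8 called with each compound are to be read against those shares. The median log2 difference of the 8 genes was 1.35 with X-1 and 0.89 with X-3, beside 0.06 for all genes in both comparisons. Without X-3 replicate 1 the median with X-3 was 1.08. Fewer cells that express a gene and less RNA of it per cell cannot be told apart in such pooled cultures.

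Levels below are log2 intensities relative to the 75th percentile of the same array, listed for replicates 1, 2 and 3, and differences from control carry the standard error of the fit to all 9 arrays. Between 57.9% and 67.1% of gene spots were well above background on each array and 0 were saturated. The X-3 arrays were not uniform. X-3 replicate 1 lay at 72.4 on the second principal component (10.9% of the variance), while X-3 replicates 2 and 3 lay at −20.7 and −17.9. Several results that rest on that array, though not all, are also given without it. Of 8 preadipocyte and fibroblast markers, including Pdgfra, Dlk1 and Col1a1, all 8 were above background on every array. Their directions differed at the brightest probe. Pdgfra (−1.35 with X-1 and −1.33 with X-3) and Thy1 (−0.84 and −0.84) fell. Dlk1 (0.40 and 0.50), Cd34 (0.48 and 1.52) and Ly6a (3.39 and 3.59) rose, and Col1a1, Col1a2 and Vim were not called. Of 5 adipocyte markers, 0 were above background on every array of a group, and Lep and Cfd were above background on no array. Adipoq was above background on no control array but on some arrays of both treated groups. Plin1 was above background on some X-3 arrays only. Adipocyte markers had a summed log2 level of −5.29 to −5 in controls, −4.39 to −3.94 with X-1 and −4.06 to −3.75 with X-3. Macrophage markers had a summed log2 level of 0.71 to 0.86 in controls, 0.02 to 0.10 with X-1 and 0.11 to 0.31 with X-3, with 3 of 5 above background in each group and Adgre1 above background on no array. These 3 did not move together: Lyz2 fell (−1.57 with X-1 and −1.52 with X-3), while Csf1r (1.11 and 1.26) and Cd68 (0.74 and 1.12) rose. Epithelial markers summed to between −3.50 and −3.28 in controls, −1.88 and −1.55 with X-1 and −1.27 and −1.03 with X-3, with Epcam and Cdh1 above background on no array. Krt8 was above background on every array and rose (1.90 with X-1 and 2.39 with X-3). Krt18, above background on 1 control array and 0 X-1 arrays, was called higher with X-3 only (1.97, limma adjusted p = 0.00385). The part of these other markers in the results was not tested.

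**Figure D1:**
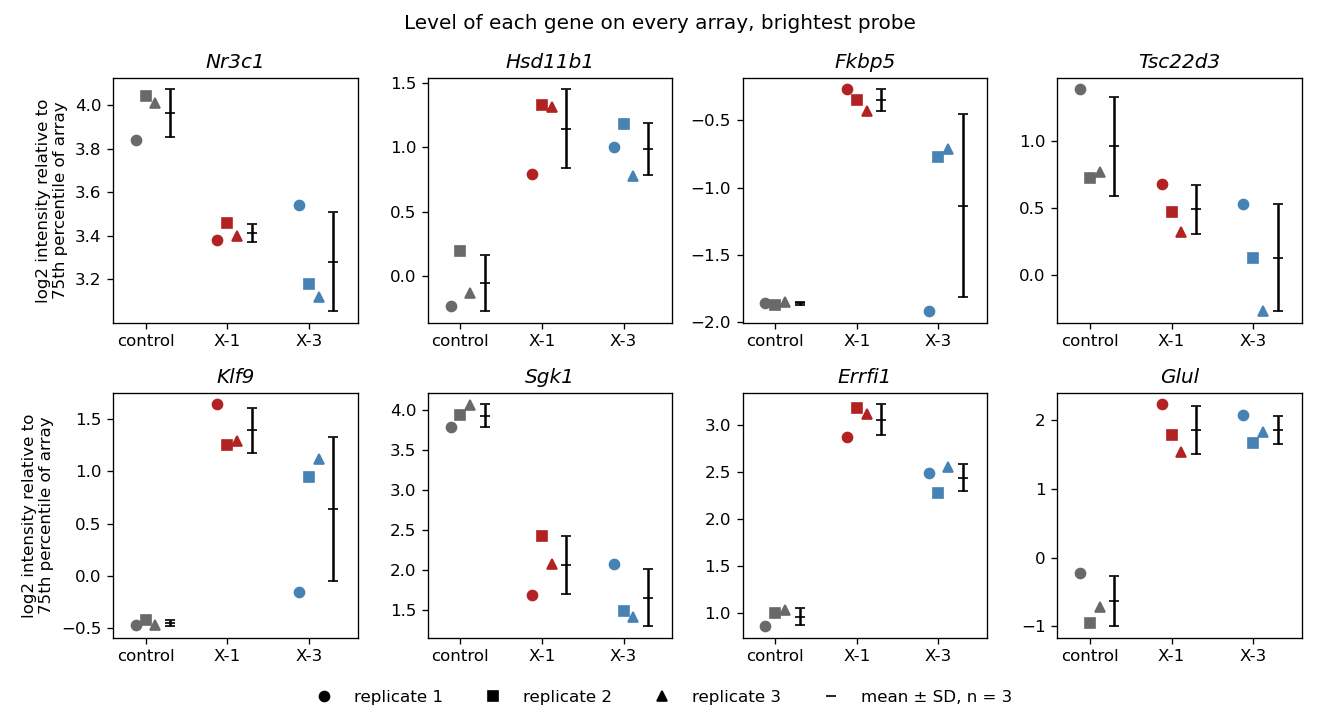
Level of each of the 8 measured genes on every array, at the brightest probe. The y axis is log2 intensity relative to the 75th percentile of the array, symbols mark the replicate number, and bars show the mean ± SD of 3 arrays. Sgk1 lay between 3.79 and 4.07 in controls and at 2.42 or lower on all treated arrays, while Errfi1 and Glul lay above control on all treated arrays. For Fkbp5 and Klf9, X-3 replicate 1 stood near the controls.

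Nr3c1, which encodes the receptor itself, gave opposite answers at its first and last probes along the messenger RNA. Its brightest probe starts at base 5849 of the transcript, far into the long 3′ end. The level there was 3.84, 4.04 and 4.01 in controls, 3.38, 3.46 and 3.40 with X-1, and 3.54, 3.18 and 3.12 with X-3. Every treated array lay below every control, and the X-1 and X-3 arrays overlapped. The change was −0.55 ± 0.14 with X-1 (0.684 of the control level, limma adjusted p = 0.0077) and −0.68 ± 0.14 with X-3 (0.622 of control, adjusted p = 0.0025).

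The probe of Nr3c1 nearest the 5′ end, at base 2285, moved the other way. It read −1.63, −0.72 and −0.77 in controls, 0.49, 0.80 and 1.01 with X-1, and 0.13, 0.06 and 0.33 with X-3. All 6 treated arrays were above the 3 controls, and X-1 arrays were all above X-3 arrays. The rise was 1.80 ± 0.25 with X-1 (3.49-fold, adjusted p over all probes 0.000307) and 1.21 ± 0.25 with X-3 (2.32-fold, 0.00325). The probes between them held intermediate values. At base 2478 the difference was 1.26 ± 0.37 with X-1 (adjusted p = 0.0188) and 0.37 ± 0.37 with X-3 (0.429). At base 3597 it was 0.63 ± 0.26 (0.0659) and −0.06 ± 0.26 (0.87), and neither passed the threshold. With the mean of its 4 probes in place of the brightest, Nr3c1 would be called higher with X-1 (0.79, adjusted p = 0.0167), so no direction for the receptor's messenger RNA as a whole is given here.

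**Figure D2:**
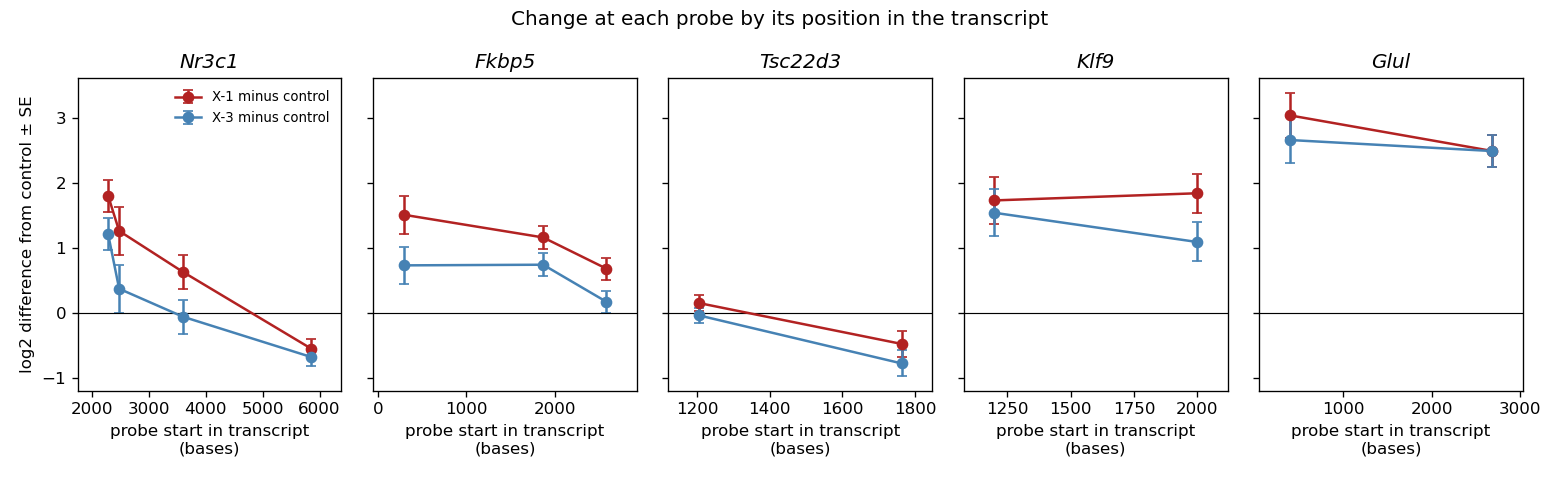
Log2 difference from control at each probe (y axis, ± SE of the limma fit to 3 arrays per group) against the probe's start in the transcript (x axis, bases), for the 5 genes with several probes on 1 RefSeq transcript. For Nr3c1 the difference ran from 1.80 at base 2285 to −0.55 at base 5849 with X-1 and from 1.21 to −0.68 with X-3, while for Glul and Klf9 every plotted probe rose with both compounds.

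Because of this spread, the first and last kept probe were compared on all 4034 transcripts that had probes at least 100 bases apart, a comparison chosen after seeing the data. For Nr3c1 the change at the first probe exceeded that at the last by 2.35 ± 0.25 with X-1 (adjusted p over the transcripts 0.00016) and by 1.90 ± 0.25 with X-3 (0.000489). On slides 1, 2 and 3 this excess was 2.57, 2.10 and 2.38 with X-1 and 2.06, 1.65 and 1.99 with X-3. A positive excess was common: 28.2% of transcripts were called positive with X-1 and 29.7% with X-3, against 3.45% and 4.86% called negative. Of these 4034 transcripts, 4.91% had an excess at least as large as that of Nr3c1 with X-1 and 9.52% with X-3. The excess was larger over longer distances. Among 2436 transcripts with probes at least 1000 bases apart, 36.4% were called positive with X-1 and 36.9% with X-3. How many of those matched Nr3c1 in size was not computed. The gap between both Nr3c1 probes was 3564 bases in the transcript and also 3564 bases in the array's genome coordinates, so no intron lies between them.

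The same measure was also taken over each whole array. The median over all transcripts of the level at the first minus the last probe was −2.01, −1.90 and −1.90 on the control arrays and −1.55, −1.66 and −1.57 on the X-1 arrays. On the X-3 arrays it was −1.94, −1.45 and −1.41, so X-3 replicate 1 fell within the control range. An exact two-sided permutation test gave p = 0.1 for X-1 against control, the smallest that 3 against 3 arrays allow, and p = 0.3 for X-3. All 3 X-1 arrays and X-3 replicates 2 and 3 lay above the controls, and neither test passed 0.05. The part of this measure in the changes at single probes was not tested.

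**Figure D3:**
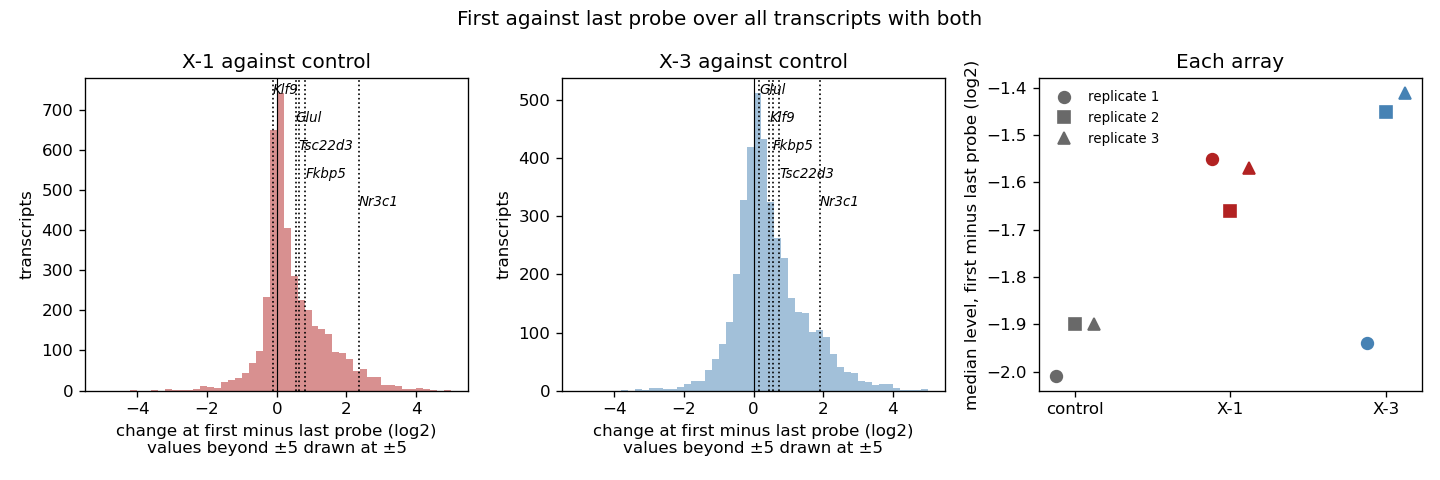
Left and middle, histograms over 4034 transcripts of the change at the first probe minus the change at the last probe (x axis, log2; y axis, number of transcripts) for X-1 and X-3 against control, with dotted lines at 5 of the genes described. Right, the median level at the first minus the last probe on each array (log2). Nr3c1 lay at 2.35 and 1.90, in the right tail of both histograms, and X-3 replicate 1 (−1.94) lay among the controls.

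Hsd11b1 encodes the reductase that turns inactive cortisone or 11-dehydrocorticosterone into active hormone. Its single probe read −0.23, 0.19 and −0.13 in controls, 0.79, 1.33 and 1.31 with X-1, and 1.00, 1.18 and 0.78 with X-3. All treated arrays were above all controls, while the compounds overlapped. The rise was 1.20 ± 0.19 with X-1 (2.3-fold, limma adjusted p = 0.000603) and 1.04 ± 0.19 with X-3 (2.06-fold, adjusted p = 0.00152). With spike-in scaling, which could be run on replicates 2 and 3 only, neither was called (0.39, adjusted p = 0.237, and 0.24, adjusted p = 0.498). The same 6 arrays at the 75th percentile gave 1.29 (0.00101) and 0.95 (0.00354), an alternative chosen after seeing the data. Under spike-in scaling all genes shifted down, their median by −0.90 with X-1 and −0.71 with X-3.

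Fkbp5 encodes an immunophilin that binds the receptor complex and lowers its affinity for hormone, and it is among the most widely used readouts of receptor activity. Its brightest probe lies near the 5′ end of the transcript, and its sequence shows which stretch of the message carried the largest Fkbp5 change with X-1. The array's probe reads:
Fkbp5 probe at base 290: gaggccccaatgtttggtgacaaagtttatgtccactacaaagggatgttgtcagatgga
The level was −1.86, −1.87 and −1.85 in controls, −0.27, −0.35 and −0.43 with X-1, and −1.92, −0.77 and −0.71 with X-3. All X-1 arrays stood above all other arrays. X-3 replicates 2 and 3 stood between X-1 and control, and X-3 replicate 1 was level with the controls. The change was 1.51 ± 0.28 with X-1 (2.85-fold, limma adjusted p = 0.00158) and 0.73 ± 0.28 with X-3 (adjusted p = 0.0533). Without X-3 replicate 1 the X-3 difference was 1.12 (adjusted p = 3.36e-05). With spike-in scaling of replicates 2 and 3 the X-1 difference was 0.57 (adjusted p = 0.0805), and the same arrays at the 75th percentile gave 1.47 (4.49e-05).

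With X-1 the other Fkbp5 probes gave smaller changes toward the 3′ end, while with X-3 the probe at base 1868 was level with that at base 290. At base 1868 the difference was 1.16 ± 0.18 with X-1 (adjusted p = 0.00055) and 0.74 ± 0.18 with X-3 (0.0071), and all 3 X-3 arrays were above control at that probe. At base 2583 it was 0.68 ± 0.17 (0.00822) and 0.17 ± 0.17 (0.427). The first probe exceeded the last by 0.82 ± 0.26 with X-1 (adjusted p = 0.0431, or 0.0743 with the slide as a replicate block), which 27.9% of transcripts matched or passed. With X-3 the excess was 0.56 ± 0.26 (0.143), and 0.83 (0.00906) without X-3 replicate 1.

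Tsc22d3, also called Gilz, encodes a leucine zipper protein that binds and restrains inflammatory transcription factors, and it is a classical glucocorticoid-induced gene. Unlike Fkbp5 and Klf9 it did not rise. Its brightest probe read 1.38, 0.72 and 0.77 in controls, 0.68, 0.47 and 0.32 with X-1, and 0.53, 0.13 and −0.27 with X-3. All treated arrays were below all controls, and control replicate 1 was well above the other controls. The change was −0.82 ± 0.24 with X-3 (0.565 of control, limma adjusted p = 0.0173). It missed the threshold without control replicate 1 (−0.62, adjusted p = 0.0565) or without X-3 replicate 3 (−0.62, adjusted p = 0.0615). With X-1 it was −0.47 ± 0.24 (adjusted p = 0.126), and 0.0239 with the replicate block. With spike-in scaling of replicates 2 and 3 the X-1 difference was −1.26 (adjusted p = 7.67e-05), and the same arrays at the 75th percentile gave −0.36 (0.0783).

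A second Tsc22d3 probe, at base 1763 of the RefSeq transcript, gave −0.48 ± 0.20 with X-1 (adjusted p = 0.0695) and −0.78 ± 0.20 with X-3 (0.00902). The probe at base 1205 gave 0.15 ± 0.12 (0.338) and −0.04 ± 0.12 (0.803). The first thus exceeded the last by 0.63 ± 0.19 with X-1 (adjusted p = 0.0377) and 0.74 ± 0.19 with X-3 (0.0172). Excesses of this size or more were found at 33.4% and 31.6% of transcripts. Leaving out single arrays raised these adjusted p-values past 0.05 in 7 of 9 cases with X-1 and 4 of 9 with X-3.

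Klf9 encodes a zinc finger transcription factor that responds to glucocorticoid and thyroid hormone. Its brightest probe, at base 1999, read −0.47, −0.42 and −0.47 in controls, 1.64, 1.25 and 1.29 with X-1, and −0.15, 0.95 and 1.12 with X-3. All treated arrays were above all controls, and X-3 replicate 1 was the treated array nearest to them. The rise was 1.84 ± 0.30 with X-1 (3.59-fold, limma adjusted p = 0.000655) and 1.09 ± 0.30 with X-3 (2.13-fold, adjusted p = 0.0122). Without X-3 replicate 1 the X-3 difference was 1.49 (adjusted p = 4.66e-05). A probe nearer the 5′ end gave similar rises, and its sequence marks the part of the message that was read:
Klf9 probe at base 1198: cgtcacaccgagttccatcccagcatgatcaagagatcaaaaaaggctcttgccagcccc
At that probe the difference was 1.73 ± 0.36 with X-1 (adjusted p = 0.00298) and 1.54 ± 0.36 with X-3 (0.0059). The first and last Klf9 probes differed by −0.11 ± 0.24 with X-1 (interval −0.67 to 0.44) and 0.45 ± 0.24 with X-3 (interval −0.11 to 1.00), and neither passed the threshold.

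Sgk1 encodes a serine/threonine kinase that is induced by serum as well as by glucocorticoid and acts on ion channels and FoxO factors. Its probe at base 2120 read 3.79, 3.94 and 4.07 in controls, 1.69, 2.42 and 2.07 with X-1, and 2.07, 1.48 and 1.41 with X-3. Every treated array lay below every control by more than 1 log2 unit, and the compounds overlapped. Sgk1 fell by 1.88 ± 0.23 on the log2 scale with X-1 (0.272 of control, limma adjusted p = 0.000111). With X-3 it fell by 2.29 ± 0.23 (0.205 of control, adjusted p = 3.95e-05). This was the largest fall among the 8 genes with either compound. A second probe that the files name Sgk1 was above background on 0 arrays and has no test.

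Among the genes whose upstream sequence was read, Sgk1 alone had a complete response element next to an annotated start. The palindrome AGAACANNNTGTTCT was searched in the 250 bases before each start in the RefSeq promoter table (GRCm38.p6), with 15 windows of 7 of the 9 genes used. It occurred in 1 of these, before 1 of the 6 listed Sgk1 starts, and in 3 of all 32851 windows (0.00913%). The half-site AGAACA, searched on both strands and also counted inside the palindrome, occurred in 4 of the 15 windows (3 of 6 for Sgk1 and 1 of 3 for Tsc22d3), beside 16.1% of all windows. Sgk1 and Tsc22d3 are the targets with a called fall, so the Sgk1 window with the palindrome and the Tsc22d3 window with the half-site are printed. The other 2 Sgk1 windows with a half-site are not shown. The Sgk1 window lies at chr10:21993640-21993889 on the plus strand, with the palindrome in capitals at bases 189 to 175 before the start. The Tsc22d3 window lies at chrX:140600523-140600772 and is printed along the minus strand, with the half-site (reading TGTTCT on this strand) in capitals at bases 185 to 180 before the start.
Sgk1 window: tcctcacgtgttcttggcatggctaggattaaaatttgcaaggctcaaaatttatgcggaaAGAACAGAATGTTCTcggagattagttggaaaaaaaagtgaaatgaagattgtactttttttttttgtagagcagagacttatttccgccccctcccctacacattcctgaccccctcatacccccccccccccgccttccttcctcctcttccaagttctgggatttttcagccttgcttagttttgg
Tsc22d3 window: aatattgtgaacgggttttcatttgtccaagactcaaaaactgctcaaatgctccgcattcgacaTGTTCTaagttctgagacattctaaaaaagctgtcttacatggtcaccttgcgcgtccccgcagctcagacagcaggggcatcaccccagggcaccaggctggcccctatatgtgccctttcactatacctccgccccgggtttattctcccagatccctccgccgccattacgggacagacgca
The Sgk1 window contains a further half-site in lower case. A match of letters does not show binding, and which Sgk1 start was in use in these cells was not measured.

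Errfi1, also called Mig6, encodes an adaptor that inhibits the epidermal growth factor receptor. It read 0.86, 1.00 and 1.03 in controls, 2.87, 3.18 and 3.11 with X-1, and 2.49, 2.28 and 2.55 with X-3. The order was X-1, X-3, control, with no overlap between any of the groups. The rise was 2.09 ± 0.13 with X-1 (4.25-fold, limma adjusted p = 2.38e-06) and 1.48 ± 0.13 with X-3 (2.78-fold, adjusted p = 2.16e-05). Its slide differences were 2.01, 2.17 and 2.08 with X-1 and 1.63, 1.28 and 1.52 with X-3.

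Glul encodes glutamine synthetase, which joins ammonia to glutamate, and it rose most among the 8 genes. Its brightest probe, at base 2687, read −0.23, −0.95 and −0.72 in controls, 2.23, 1.79 and 1.54 with X-1, and 2.08, 1.67 and 1.83 with X-3. All treated arrays were above all controls, and the compounds overlapped. The rise was 2.49 ± 0.23 with X-1 (5.61-fold, limma adjusted p = 2.28e-05) and 2.49 ± 0.23 with X-3 (5.63-fold, adjusted p = 2.76e-05). A probe nearer the 5′ end rose as well. Its estimates were the largest of the Glul probes, but they were not called different from those at the last probe. The sequence marks the part of the message that was read:
Glul probe at base 392: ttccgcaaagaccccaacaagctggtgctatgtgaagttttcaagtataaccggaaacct
There the difference was 3.04 ± 0.35 with X-1 (8.23-fold, adjusted p = 0.000104) and 2.66 ± 0.35 with X-3 (6.32-fold, 0.000264). Another probe, above background on 1 of 3 control arrays and on all treated arrays, gave 2.14 ± 0.35 (0.000807) and 2.20 ± 0.35 (0.000753). The first and last probe on the RefSeq transcript differed by 0.55 ± 0.55 with X-1 (adjusted p = 0.601) and 0.17 ± 0.55 with X-3 (0.86), and neither passed the threshold. In the separate tests of single probes, Glul rose at each of its probes with both compounds.

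X-1 and X-3 were given at the same dose and for the same time, so their levels can be set against each other directly. Of the 8 genes Errfi1 alone was called between them, at −0.61 ± 0.13 for X-3 minus X-1 (95% confidence interval −0.91 to −0.31, limma adjusted p = 0.0227). The background was 10.9% of all genes called in this comparison (7.19% higher and 3.67% lower with X-3). The Errfi1 call ended under several alternatives, among them median scaling (−0.62, adjusted p = 0.128) and leaving out X-1 replicate 2 (−0.55, adjusted p = 0.0907), X-1 replicate 3 (−0.58, 0.0875), X-3 replicate 2 (−0.53, 0.0825) or X-3 replicate 3 (−0.67, 0.0509).

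For 7 genes the difference between the compounds was not called, and the intervals show how large it could be. Fkbp5 was at −0.78 ± 0.28 (interval −1.42 to −0.14, adjusted p = 0.115) and Klf9 at −0.75 ± 0.30 (−1.43 to −0.08, 0.141). In both, all X-3 arrays were below all X-1 arrays, and slide 1 gave most of the difference (−1.64 on slide 1 for Fkbp5, against −0.42 and −0.28 on slides 2 and 3). Without X-3 replicate 1 the Fkbp5 difference shrank to −0.39 but passed the threshold (adjusted p = 0.0319), and that of Klf9 was −0.36 (adjusted p = 0.111). Intervals for the others were −0.45 to 0.17 for Nr3c1, −0.59 to 0.27 for Hsd11b1, −0.90 to 0.19 for Tsc22d3, −0.92 to 0.11 for Sgk1 and −0.52 to 0.53 for Glul. With replicates 2 and 3 alone, an alternative chosen after seeing the data, 4 of the 8 genes were called lower with X-3. Among them were Nr3c1 (−0.28, adjusted p = 0.0401), Fkbp5 (−0.35, 0.0233) and Sgk1 (−0.80, 0.00938). That setting called 6461 of all 16736 genes between the compounds, 2990 higher and 3471 lower with X-3, so the count is to be read against these. The labels and title do not describe how the structures of X-1 and X-3 differ.

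**Figure D4:**
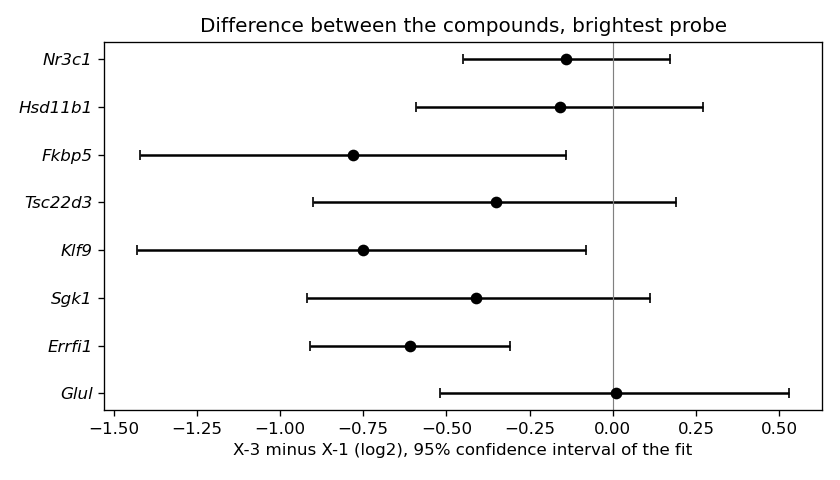
Difference between the compounds for the 8 measured genes, as X-3 minus X-1 at the brightest probe (x axis, log2). Points are estimates of the limma fit and bars are 95% confidence intervals, before adjustment for the number of genes. The intervals of Errfi1, Fkbp5 and Klf9 lay below 0, and after adjustment Errfi1 alone was called.

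At the level of single probes, 18 of the 19 were kept and tested. With X-1, 12 rose and 2 fell, beside 54.9% of all probes called in either direction (28.2% higher and 26.7% lower). With X-3, 9 rose and 4 fell, beside 54.2% (28.8% higher and 25.4% lower). Between the compounds 1 was called, that of Errfi1, beside 9.36% of all probes (6.01% higher and 3.35% lower with X-3), and 2 were called with the replicate block.

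Genes whose levels followed those of the receptor and of its best known targets over the 9 arrays were read off by Pearson correlation, as a description only, since 3 controls and 6 treated arrays form separate clusters. Closest to Nr3c1 at its brightest probe were Sulf2 (r = 0.993), Gli3 (0.992) and Smad6 (0.991), with differences from control of −0.55, −0.52 and −0.82 with X-1 and −0.74, −0.65 and −1.0 with X-3. Closest to Fkbp5 were Yrdc (0.99), Klf9 (0.987) and Rab2a (0.985), and X-3 replicate 1, where Fkbp5 was level with the controls, enters each of these correlations. Closest to Tsc22d3 were Pwwp2a (0.976), Mkrn2 (0.97) and Cd9 (0.969).

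Other genes known to be induced by glucocorticoid mostly rose. Of 27 that could be tested, 18 rose and 2 fell with X-1 (median 1.37), and 19 rose and 4 fell with X-3 (median 1.15). For all genes the medians were 0.06, with 28.2% higher and 28.3% lower with X-1 and 29.3% and 26.4% with X-3. With spike-in scaling the counts were 12 up and 5 down with X-1 and 13 up and 4 down with X-3. Over all 16736 genes that scaling gave 1543 higher and 9940 lower with X-1 and 1845 and 8379 with X-3. Lcn2, which encodes the siderophore-binding protein lipocalin 2, rose by 5.17 ± 0.22 with X-1 (limma adjusted p = 4.48e-07) and 4.49 ± 0.22 with X-3 (1.07e-06). Cebpd, an early transcription factor of adipogenesis, rose by 3.05 ± 0.20 (2.68e-06) and 2.79 ± 0.20 (5.98e-06). Ddit4, an inhibitor of mTORC1 that also responds to stress, rose by 2.59 ± 0.44 (0.000886) and 2.45 ± 0.44 (0.00136).

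Sult1a1, Map3k6 and Rgs2 went against that direction. Sult1a1, a phenol sulfotransferase, was above background on all control arrays and on 0 X-1 arrays. With the main background correction it was at least 8.66-fold lower with X-1 (adjusted p = 2.51e-06). The bound sets the control mean against the lowest signal called above background on each X-1 array, or the probe's own signal where higher. With X-3 Sult1a1 fell by 2.80 ± 0.24 on the log2 scale (1.83e-05). These sizes depended on the background correction. With normexp Sult1a1 was at −1.68 with X-1 (5.41e-05), a smaller fall than the bound, and at −1.49 with X-3 (0.00015). Map3k6, a stress-activated kinase, changed by −0.94 ± 0.20 with X-1 (0.00369) and −1.49 ± 0.20 with X-3 (0.00028). Rgs2, a brake on G protein signalling, changed by −0.86 ± 0.13 with X-3 (0.000558) and by 0.17 ± 0.13 with X-1 (0.286), although its other probe fell with both compounds (−2.29, adjusted p = 5.42e-05, and −3.13, 1.1e-05).

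Genes that glucocorticoid is known to repress also mostly rose. Of 15 tested, 10 rose and 1 fell with X-1, and with X-3 11 rose and the other 4 were not called. Of all genes, 28.2% were higher and 28.3% lower with X-1, and 29.3% and 26.4% with X-3. The list median was 1.1 in both, beside 0.06 for all genes. Under spike-in scaling, where most called genes were lower, the list counts were 6 up and 3 down (X-1) and 7 up and 4 down (X-3). Ptgs2, the inducible prostaglandin synthase, rose by 5.63 ± 0.14 with X-1 (limma adjusted p = 6.16e-08) and 4.03 ± 0.14 with X-3 (3.15e-07). Il6, an inflammatory cytokine, rose by 3.95 ± 0.18 (4.87e-07) and 3.25 ± 0.18 (1.59e-06). Csf2, the granulocyte-macrophage growth factor, and Nos2, the inducible nitric oxide synthase, were above background on 0 control arrays. They were at least 13.1-fold and 3.08-fold higher with X-1 and at least 13.3-fold and 3.43-fold higher with X-3, by the same kind of bound (adjusted p from 6e-08 to 7.46e-07). These sizes depended on the background correction. With normexp Csf2 was at 1.79 (2.57e-05) and 1.80 (3.07e-05) on the log2 scale, below its bound, and Nos2 with X-3 at 0.67 (0.0242). With the deposited scores Nos2 with X-3 was not called (0.072). Cxcl5, a neutrophil chemokine, was the gene of this list that fell, by 0.78 ± 0.22 on the log2 scale with X-1 (0.0125).

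**Figure D5:**
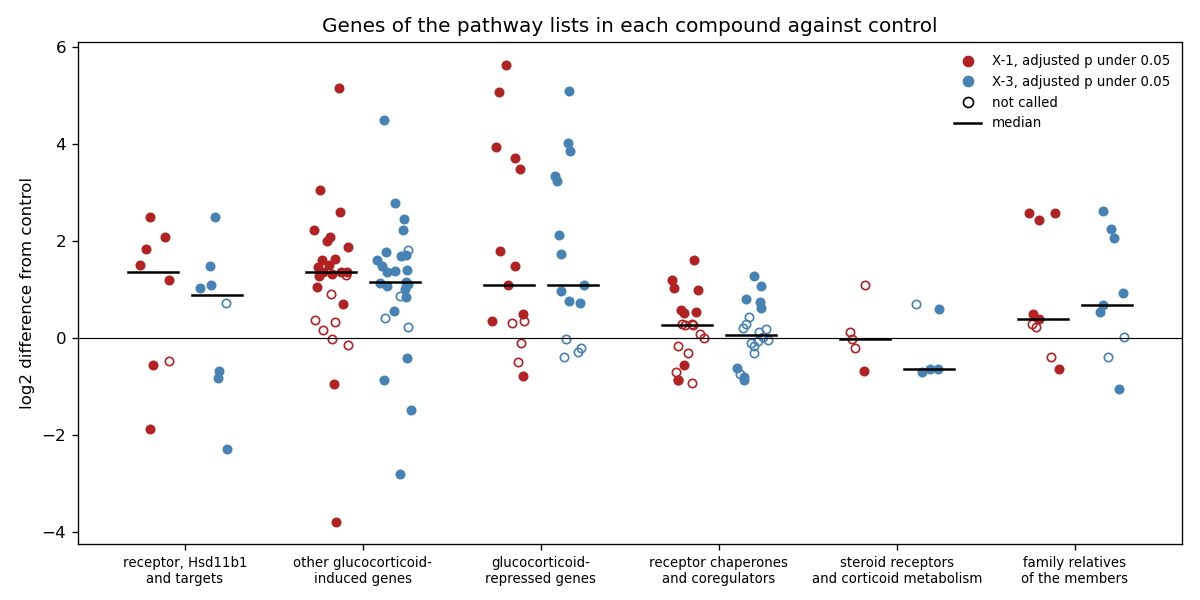
Log2 difference from control (y axis) of each tested gene, by list, with X-1 in red and X-3 in blue at the brightest probe. Filled points were called at a limma adjusted p under 0.05, and bars are list medians. Genes known as induced and genes known as repressed by glucocorticoid both lay mostly above 0, with medians of 1.37 and 1.1 for X-1.

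The receptor's chaperones and coregulators went both ways. Of 20 tested, 7 rose and 3 fell with X-1 (median 0.27) and 5 rose and 3 fell with X-3 (median 0.07), beside the 56.5% and 55.7% of all genes called. With X-1 median scaling gave 4 up and 4 down and spike-in scaling 1 up and 10 down. With X-3 these scalings gave 3 and 3, and 1 and 5. The corepressor gene Nrip1 rose by 1.60 ± 0.21 with X-1 (limma adjusted p = 0.000181) and 1.07 ± 0.21 with X-3 (0.00217). The p160 coactivator gene Ncoa3 rose by 1.20 ± 0.12 (3.65e-05) and 1.28 ± 0.12 (2.98e-05), but was not called with spike-in scaling (0.40, 0.222, and 0.56, 0.0933). Its relative Ncoa1 changed by −0.86 ± 0.13 (0.000384) and −0.87 ± 0.13 (0.000421).

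Ncoa2, another p160 coactivator, changed by −0.86 with X-1 (0.000737) and −0.80 with X-3 (0.00117) at its brightest probe, and by 1.42 (1.16e-05) and 1.64 (6.54e-06) at another, so its direction depended on the probe. The acetyltransferase gene Crebbp rose by 1.03 ± 0.22 with X-1 (0.00293) and 0.74 ± 0.22 with X-3 (0.0164). Stip1, which links Hsp70 to Hsp90, rose by 0.58 ± 0.12 (0.00266) and 0.80 ± 0.12 (0.00046). With spike-in scaling Crebbp with X-1 was at 0.23 (0.499) and Stip1 with X-3 at 0.02 (0.96), and neither was called. With X-1 the methyltransferase gene Carm1 was lower (−0.55 ± 0.17, 0.0228), and with X-3 the immunophilin gene Ppid was lower (−0.61 ± 0.19, 0.0245). Both of these lost their call when single arrays were left out (adjusted p up to 0.0857 and 0.0896).

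Few genes of steroid reception and corticoid metabolism could be tested. Of 5, 1 fell with X-1 and the other 4 were not called, and with X-3 1 rose and 3 fell. Of all genes, 56.5% were called with X-1 and 55.7% with X-3. The gene that fell with both compounds was H6pd, whose enzyme supplies NADPH to that of Hsd11b1 in the endoplasmic reticulum, at −0.68 ± 0.14 (limma adjusted p = 0.00297) and −0.71 ± 0.14 (0.00251). Its other probe gave −0.34 (0.0768) and 0.26 (0.162). With X-3 the mineralocorticoid receptor gene Nr3c2 changed by 0.59 ± 0.14 (0.00618), and was not called with median scaling (0.36, 0.103), normexp (0.12, 0.672) or spike-in scaling (0.02, 0.962). The steroid reductase gene Srd5a1 changed by −0.64 ± 0.16 (0.00855) with X-3 and by 1.26 (4.95e-05) at its other probe. The drug and steroid exporter gene Abcb1b changed by −0.63 ± 0.15 with X-3 (0.00707).

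Among relatives of the 9 genes, 5 of 9 tested rose and 1 fell with X-1 and 6 rose and 1 fell with X-3, beside 28.2% higher and 28.3% lower of all genes with X-1 and 29.3% and 26.4% with X-3. Under spike-in scaling the counts were 3 up and 3 down with both. Klf10 and Klf11, zinc finger relatives of Klf9, rose by 2.57 ± 0.12 (limma adjusted p = 5.22e-07) and 2.58 ± 0.15 (1.49e-06) with X-1. With X-3 they rose by 2.24 ± 0.12 (1.36e-06) and 2.06 ± 0.15 (6.54e-06). Zbtb32, a relative of Zbtb16, rose by 2.44 ± 0.23 (2.15e-05) and 2.62 ± 0.23 (1.74e-05). It was above background on 1 of 3 control arrays, and with normexp its rises were 0.88 (0.00612) and 0.98 (0.00358). Tsc22d2, of the family of Tsc22d3, changed by −0.63 ± 0.16 (0.00834) and −1.05 ± 0.16 (0.000526) at its brightest probe but by 2.45 (4.18e-05) and 2.46 (4.81e-05) at its other.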

How the data were processed

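Total RNA was labelled with Cy3 and hybridised to 9 one-colour Agilent arrays. Per the file headers, the deposited intensity values came from Feature Extraction 10.5.1.1 (replicate 1) or 10.7.3.1 (replicates 2 and 3), background-subtracted and not scaled between arrays. Version 9.1 is named in the submitters' processing notes. A score per probe (mean 0, SD 1 on each array) in the deposited series table served only as an alternative. The build of the probe coordinates is not given in the sources used here.

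Log2 intensity was reduced by each array's 75th percentile. After 214 outlier probes were left out of 41174, probes well above background on all 3 arrays of a group were kept (25288 of 40960), and the brightest kept probe stood for a gene (16736 genes). Groups were compared by two-sided tests in limma 3.58.1 (R 4.3.3), with Benjamini-Hochberg adjustment over all genes, probes or transcripts, in 1 fit to 9 arrays. P-values measure the spread between these arrays. The fit was checked on simulated data, with 66 or 67 genes changed at each size, far fewer than were called here. Of changes of 0.5 log2 units it recovered 10.4% for X-1 against control, 8.96% for X-3 against control and 5.97% between the compounds. Of changes of 1 unit it recovered 61.2%, 53.7% and 59.7%, and of 2 units 89.4%, 90.9% and 86.4%.

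Same-numbered arrays share a slide, and slide position follows the group, so the position on the slide cannot be told apart from the group. Correlations of same-numbered deviations were 0.517, 0.318 and 0.271 for X-1 and control, 0.238, 0.112 and 0.23 for X-3 and control, and −0.0407, −0.182 and 0.156 for X-3 and X-1.

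All 9 genes were to be named with every probe, and from each other list up to 3 called genes with the largest rise and 3 with the largest fall. The genes and lists were chosen with earlier results of these data known. Alternatives were quantile, median and spike-in scaling, normexp with offset 50 (on the median signal, since some files lack the mean signal), the deposited scores, no filter on dim probes, the mean of a gene's probes, only the compared groups, the replicate block, leaving out each array and, added later, replicates 2 and 3 alone. Spike-in scaling used replicates 2 and 3 only. Irs2, Pck1, Lif, Crh and Cyp11b1 are not analysed here.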

Additional observations from a re-analysis of the deposited data

How the results depend on the processing

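Against control, 292 of 304 combinations of measured gene and alternative kept direction and side of the threshold, 5 lost a call, 5 gained one and 2 reversed. Some alternatives could not change a direction, so the 292 include combinations where it was fixed. Leaving out an array of the group not compared, only the compared groups and the replicate block keep the estimated difference and alter only its adjusted p. Both reversals were Nr3c1 with the mean of its probes (0.79 with X-1, 0.21 with X-3). The same setting reversed Ncoa2 (0.31 and 0.53), Tsc22d2 (0.91 and 0.70) and, with X-3, Srd5a1 (0.31). The near-zero Glul difference between compounds (0.01) became 0.00 with median scaling, −0.01 with normexp, −0.11 with the mean of probes and −0.15 to 0.19 without single arrays.

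Counts between the compounds were the least stable. The 1 gene of the group called fell to 0 with median scaling, spike-in scaling, no filter or only the compared groups, rose to 4 with replicates 2 and 3 alone and ranged from 0 to 2 without single arrays. Its probe count (1) fell to 0 with median scaling, no filter or only the compared groups, rose to 2 with the replicate block and 8 with replicates 2 and 3 alone, and ranged from 0 to 2. Over all genes the count of 1819 became 494 with median scaling (340 higher, 154 lower), 1045 with normexp, 577 with no filter, 6461 with replicates 2 and 3 alone and 759 with only the compared groups, and ranged from 627 to 3398, the highest without X-3 replicate 1. The cause was not tested. The steroid list's count of 1 with X-1 became 4 with spike-in scaling, 2 with the mean of probes, only the compared groups or replicates 2 and 3 alone, and ranged from 1 to 2.

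Relative to the 75th percentile, median scaling shifted all genes by −0.22 (X-1) and −0.23 (X-3) at their median, and the calls went from 4719 higher and 4734 lower to 3106 and 5246 (X-1), and from 4903 and 4411 to 3047 and 5006 (X-3). Spike-in scaling, on replicates 2 and 3 only, gave 1543 higher and 9940 lower (X-1) and 1845 and 8379 (X-3). The genes' own calls were then 3 up and 3 down with each compound. With the replicate block, Tsc22d3 with X-1 was called (adjusted p = 0.0239), and no other call of the 8 genes changed at the brightest probe.

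For first minus last probe, Glul with X-3 became −0.01 with quantile normalization and −0.83 with normexp, and with X-1 −0.53 with normexp. Without single arrays it ranged from −0.28 to 0.61 with X-3, and Klf9 with X-1 from −0.36 to 0.04. Nr3c1 ranged from 2.12 to 2.47 with X-1 and 1.67 to 2.05 with X-3. Signal over background limits the dim probes of Fkbp5 and Glul, and 3 arrays per group limit every value.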
